A study of Apis mellifera with 36 samples.

Results

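The major royal jelly protein genes form a cluster in the honey bee genome, and the range of gene IDs from GB55204 to GB55213 stands for it here. The members were chosen by ID alone: all 10 IDs of the range were present among the 15314 gene IDs counted in each library. The counts did not pair IDs with names. The names mrjp1 for GB55205 and mrjp2 for GB55212 come with the definition of the range and could not be checked, and the other 8 IDs are given without a name. RefSeq's gene table for a later assembly, Amel_HAv3.1, lists 9 Mrjp genes in one run, with the yellow family genes Y-e3 and Y-h on its flanks, but 0 of the 15314 IDs matched that table. Sequences and positions of the members are therefore not given.

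Major royal jelly proteins are secreted by the hypopharyngeal glands in the head of young workers and make up most of the protein of royal jelly, the food that workers give to larvae and to the queen. Their genes arose by repeated duplication from a gene of the yellow family, a family of secreted proteins known in insects for its part in cuticle pigmentation. Mrjp1 encodes the most abundant protein of the jelly, and Mrjp2 another major one. Transcripts of the family have also been described in the mushroom bodies, the brain centres in which bees combine the senses and form memories.

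The study compared 12 unresponsive bees, 12 guards and 12 nurses, all workers of Apis mellifera aged 7 days, with 6 bees of each type from colony 6 and 6 from colony 5. Each colony was headed by a queen inseminated by 1 drone, so sisters of a colony shared their father's whole genome. Bees lived from emergence in dishes of 10, and every dish met an intruder bee and a queen larva, both presented again an hour later. Guards attacked the intruder both times, nurses tended the larva both times, and unresponsive bees showed no overt response. Each library came from a separate bee. Per the labels' protocols, the optic lobes, the subesophageal ganglion, the antennal lobes and the hypopharyngeal glands were cut away, and the part sequenced held mostly mushroom bodies and central brain. Gland and brain markers fixed by symbol could not be matched to IDs, so the tissue label was not checked. In bulk tissue, fewer cells of a type and less RNA per cell cannot be told apart.

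Bees are named by their type and the number in their title. Each of the 12 numbers occurs in 3 bees, 1 of each type, from a single colony. The labels do not say what the number stands for. They mention 6 groups of bees from each colony, as many as there are numbers per colony, but do not tie numbers to groups. The file names show that the 3 libraries of a number shared 1 first index sequence, for 12 of 12 numbers. Likewise, the libraries of a type shared 1 second index sequence, for 3 of 3 types. Any effect of that index cannot be told apart from type. Gene counts per library ran from 16.2 to 27.6 M (mega), with a median of 18.8 M. The 3 libraries numbered 213 stood apart in depth, with 23.3 to 27.6 M against 16.2 to 22.7 M in the others, and carry a different lane mark. No 2 libraries held identical counts. The labels also give each library's reads of deformed wing virus (DWV), a common honey bee virus. Its load exceeded 1000 reads per 1000000 total reads (RPM) in 3 of 18 bees of colony 6 and 13 of 18 bees of colony 5, and in 6 of 12 unresponsive bees, 8 of 12 guards and 2 of 12 nurses.

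The summed level of the 10 IDs was spread over more than 3 orders of magnitude between bees of the same age. Levels are counts per 1000000 gene counts of the library (CPM), not corrected for gene length, so they are compared between bees and not between genes. The lowest sum was 4.76 CPM in Guard 36, the median over the 36 bees was 29.2 CPM, and the highest was 17199.6 CPM in Guard 222. In Guard 222, 1.72% of all gene counts fell in the 10 IDs. The top 2 bees, Guard 222 and Nurse 222, held 67.4% of the summed CPM of all 36 bees, and the top 5 held 89.2%. A sum of at least 100 CPM was reached by 14 of 36 bees, 8 of 18 in colony 6 and 6 of 18 in colony 5. By type these were 2 of 12 unresponsive bees, 5 of 12 guards and 7 of 12 nurses.

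High bees shared title numbers in part. In colony 6, the bees numbered 205 had 862 CPM (unresponsive), 2622 CPM (guard) and 817 CPM (nurse). Those numbered 210 had 964 CPM (unresponsive), 379 CPM (guard) and 3606 CPM (nurse). All 3 bees were high under both numbers. Under numbers 213 and 230 all 3 bees were low: 10.8 CPM (unresponsive), 17.1 CPM (guard) and 8.58 CPM (nurse) for 213, and 8.57 CPM (unresponsive), 15.5 CPM (guard) and 8.06 CPM (nurse) for 230. Number 237 had 33.3 CPM (unresponsive), 8.16 CPM (guard) and 9.54 CPM (nurse). Number 222 broke this pattern, with 22.7 CPM in its unresponsive bee against 17199.6 CPM in its guard and 10660.8 CPM in its nurse.

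In colony 5, number 19 had 96.2 CPM in the unresponsive bee, 475 CPM in the guard and 2749 CPM in the nurse. Number 35 had 4.79 CPM in the unresponsive bee, 138 CPM in the guard and 131 CPM in the nurse. For numbers 32 and 40 the nurse stood alone, at 103 CPM for Nurse 32 and 142 CPM for Nurse 40, while the other bees of these numbers ran from 8.43 CPM (Guard 32) to 28.9 CPM (Guard 40). The bees numbered 36 had 29.4 CPM (unresponsive), 4.76 CPM (guard) and 7.39 CPM (nurse), and those numbered 5 had 29.0 CPM (unresponsive), 7.22 CPM (guard) and 83.8 CPM (nurse). Sums in colony 5 were thus spread within most numbers.

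**Figure D1:**
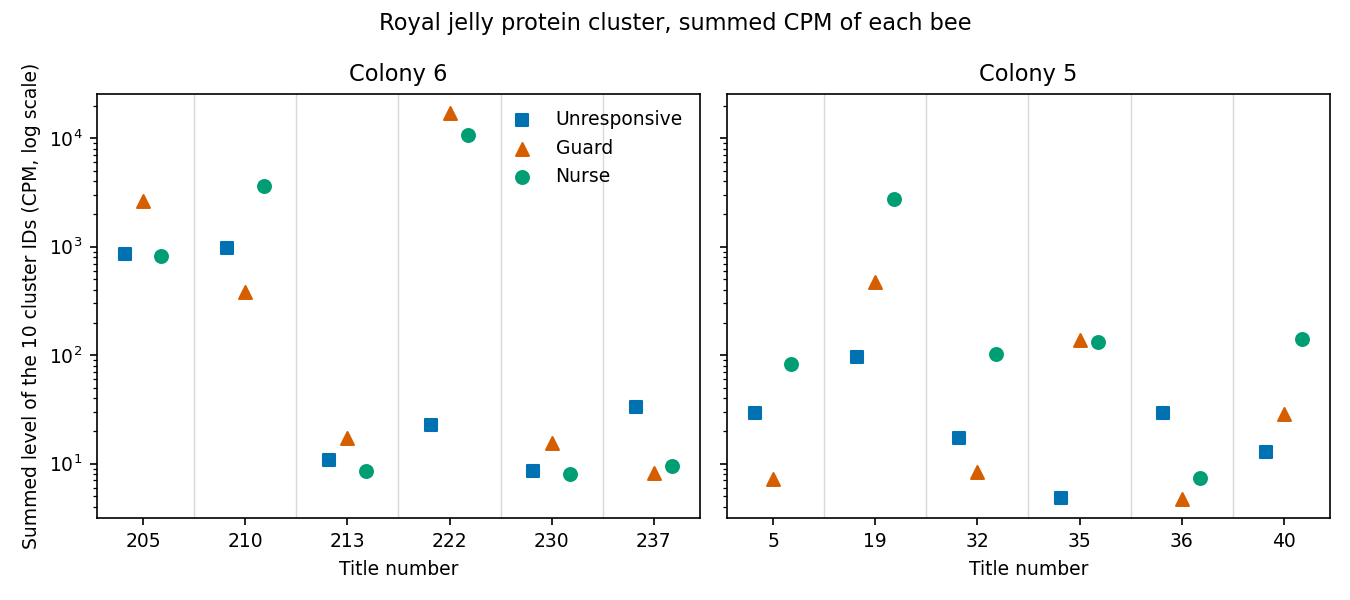
Summed level of the 10 cluster IDs (CPM, log axis) in each bee, by title number, with colony 6 left of colony 5 and a point per bee marked by behavioural type. All 3 bees of numbers 205 and 210 sit at 379 CPM or above, all 3 bees of numbers 213 and 230 sit at 17.1 CPM or below, and number 222 spans 22.7 to 17199.6 CPM.

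Differences between numbers were tested in each gene by adding title number to a model with type and colony (edgeR quasi-likelihood test, 10 joint terms, Benjamini-Hochberg adjustment over all 10948 genes that passed the low-count filter, threshold 0.05). Of the 10 IDs, 9 passed the filter. All 9 of these differed between numbers, where 1.11% of all genes tested did. The adjusted p was 0.00101 for GB55204, 0.0172 for GB55205, 0.00538 for GB55206 and 0.0180 for GB55212, and the largest was 0.0442 for GB55207. DESeq2 also called 9, against 11.5% of all genes. The count rested on a few numbers: without the libraries numbered 213, 2 genes were called (GB55204 and GB55206, adjusted p = 0.0273 and 0.0458 by edgeR, with 0.119% of all genes called), without number 230 it was 5 (1.09% of all genes), and without number 237 it was 5 (0.529% of all genes). What the number stands for and the shared first index cannot be told apart.

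GB55205, given as mrjp1, had reads in all 36 bees. In unresponsive bees it ran from 1.10 to 628 CPM with a median of 7.58 CPM, in guards from 0.919 to 9415 CPM with a median of 8.06 CPM, and in nurses from 1.71 to 5900 CPM with a median of 71.1 CPM. The 3 types overlapped from 1.71 to 628 CPM, while the highest guards and nurses lay far above every unresponsive bee. GB55212, given as mrjp2, ran from 0 to 107 CPM in unresponsive bees (median 1.26 CPM), from 0.153 to 2230.0 CPM in guards (median 0.633 CPM) and from 0.262 to 1426 CPM in nurses (median 11.7 CPM). For both genes the highest bees were Guard 222 and Nurse 222, and the nurses had the highest median.

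GB55204 had a median of 0.883 CPM in unresponsive bees, 0.726 CPM in guards and 6.12 CPM in nurses, and reached 2608 CPM in Guard 222. Its reads were the most concentrated of the tested genes, with 84.6% of them in 2 bees. GB55206 had medians of 1.26 CPM in unresponsive bees, 1.36 CPM in guards and 5.81 CPM in nurses. GB55208 had medians of 1.66 CPM in unresponsive bees, 3.88 CPM in guards and 5.65 CPM in nurses. For GB55209 the medians were 1.10 CPM in unresponsive bees, 1.61 CPM in guards and 4.41 CPM in nurses. GB55211 was low in most bees, with medians of 0.325 CPM in unresponsive bees, 0.164 CPM in guards and 1.81 CPM in nurses. It reached 275 CPM in Guard 222. In each of these 5 genes the median was highest in nurses and the groups overlapped.

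GB55213 never fell below 1.95 CPM, and its medians were 4.42 CPM in unresponsive bees, 4.82 CPM in guards and 8.20 CPM in nurses, up to 777 CPM in Guard 222. GB55207 had the narrowest range at the top, with a maximum of 70.2 CPM, and it was the one gene with its highest median in guards: 0.735 CPM in unresponsive bees, 2.92 CPM in guards and 0.908 CPM in nurses. Its highest bee was Guard 210, not Guard 222. GB55210 had 4 reads over all 36 libraries, in 3 bees (Unresponsive 36, Guard 222 and Nurse 210), and did not pass the low-count filter, so no comparison of it was made.

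**Figure D2:**
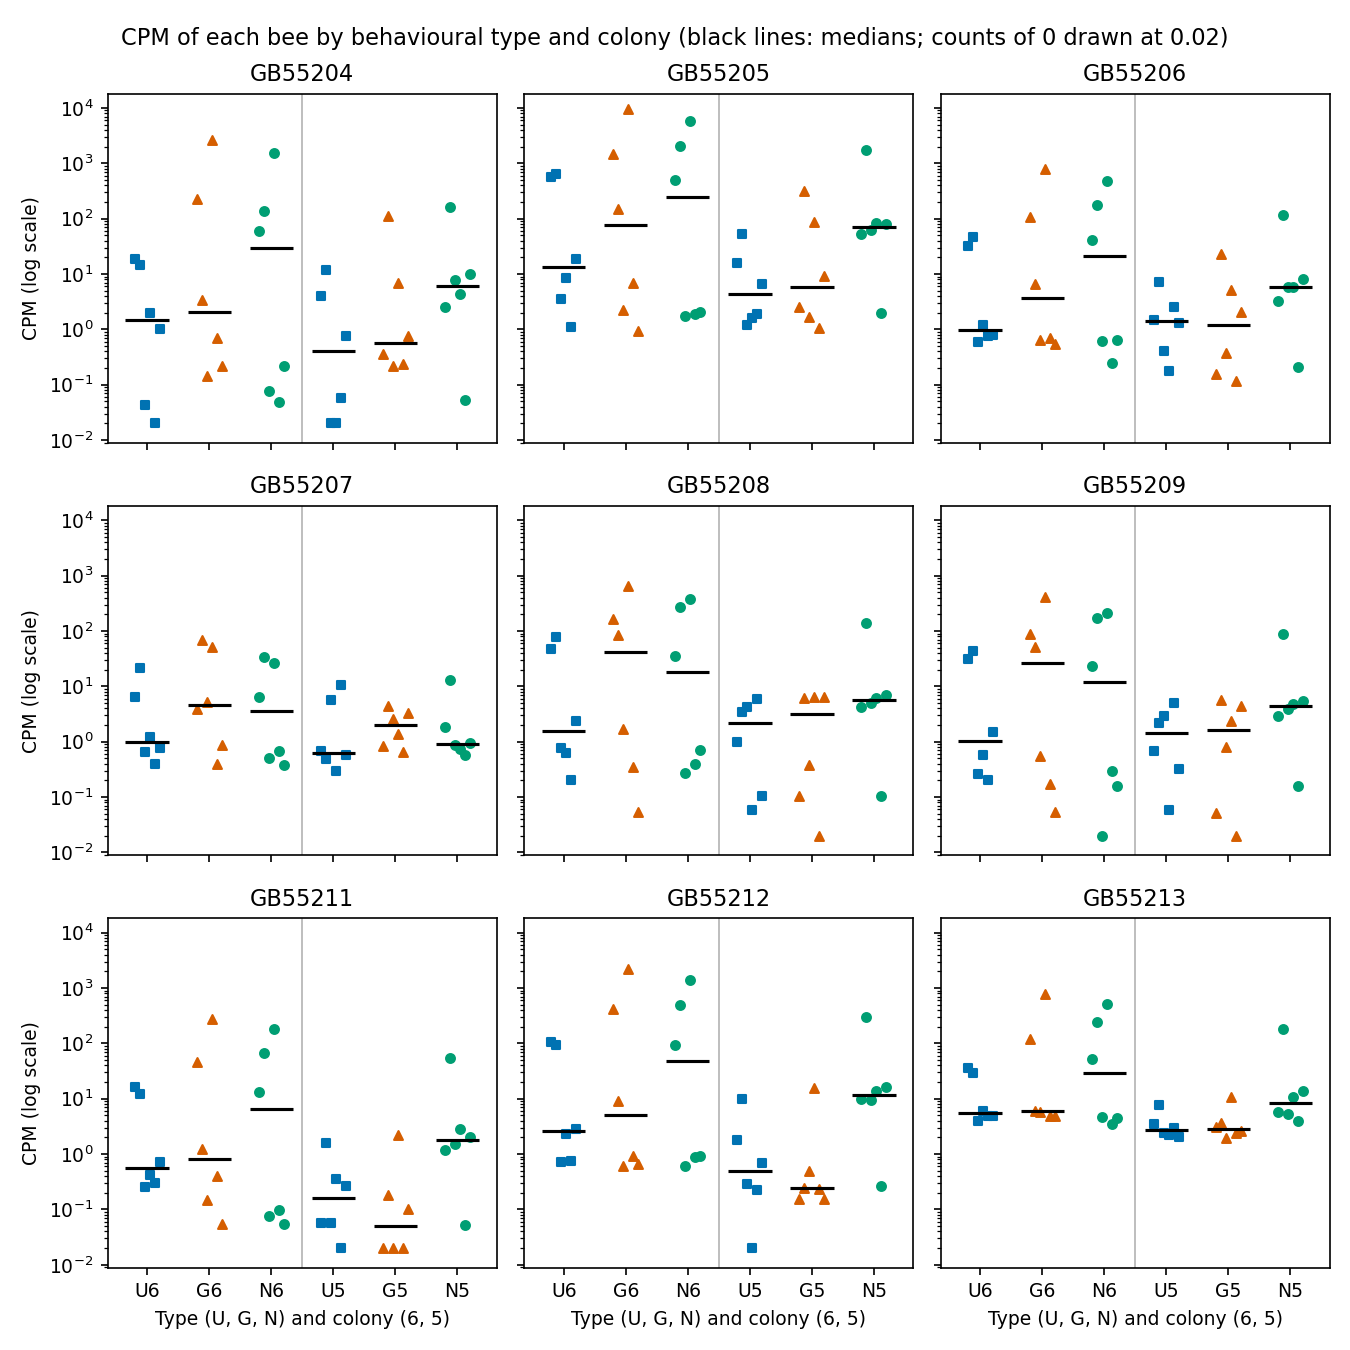
Level of each cluster gene (CPM, log axis) in every bee, by behavioural type (U unresponsive, G guard, N nurse) and colony (6 left of 5), a point per bee with a line at each group's median and counts of 0 drawn near the lower edge. The types overlap in every gene, and single bees such as Guard 222 and Nurse 222 lie far above the medians in most genes.

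Between behavioural types none of the 9 genes passed the threshold. For unresponsive bees against nurses, the contrast between bees that ignored the larva and bees that tended it, the fitted log2 difference was -3.51 ± 1.03 (SE) for GB55213, with an unadjusted p of 0.00175 and an adjusted p of 0.579 by edgeR. It was -4.77 ± 1.61 for GB55204, -3.88 ± 1.46 for GB55205, -4.35 ± 1.47 for GB55212 and -0.54 ± 0.88 for GB55207. Differences were below 0 for 9 of 9 genes, with a median of -3.51 against -0.0014 over all genes, and 8 of 9 had an unadjusted p under 0.05, against 5.4% of all genes. Because the 9 genes varied together, with a median pair correlation of 0.883, such counts are not independent evidence, here or in the other comparisons. edgeR called 0 of 9 and 0% of all genes, and DESeq2 called 1 of 9 and 0.0731% of all genes. The one was GB55213, with a log2 difference of -3.37 ± 0.80 and an adjusted p of 0.0351 by DESeq2. Types also differed in virus load: over 1000 RPM in 6 of 12 unresponsive bees and 2 of 12 nurses. With DWV load in the model, the median difference was -2.10, and 1 of 9 genes had an unadjusted p under 0.05, against 3.48% of all genes. The main tests of type took bees of one title number as independent. With number as a replicate block the median was -2.17, and edgeR called 0 of 9 and 0% of all genes.

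Unresponsive bees against guards gave a similar picture. Differences were below 0 for 9 of 9 genes, with a median of -2.72, and 5 had an unadjusted p under 0.05, as had 15.7% of all genes. edgeR called 0 of 9, where 0.0183% of all genes were called, and DESeq2 called 0 of 9 and 1.14% of all genes. The smallest adjusted p was 0.162, for GB55204 (log2 difference -4.94 ± 1.64), and GB55205 stood at -2.87 ± 1.38. High loads of DWV were found in 6 of 12 unresponsive bees and 8 of 12 guards. With DWV load in the model the median was -2.45, and 3 of 9 genes had an unadjusted p under 0.05, against 13% of all genes. The replicate block gave a median of -1.28, with 1 of 9 genes under 0.05, against 17.9% of all genes. edgeR then called 0 of 9 and 0.0822% of all genes.

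Guards and nurses, which differ in the stimulus they answered, gave the smallest differences. For GB55205 the fitted ratio of guards to nurses was 0.499, with a 95% interval of -3.78 to 1.77 on the log2 scale. For GB55212 the log2 difference was -1.49 ± 1.38 with an interval of -4.29 to 1.32, and for GB55207 it was 0.41 ± 0.85. Differences were below 0 for 7 of 9 genes, with a median of -0.98. edgeR called 0 of 9 and 0.0913% of all genes, and DESeq2 called 0 of 9 and 1.16% of all genes. An unadjusted p under 0.05 was found for 0 of 9, against 15.2% of all genes. These intervals do not exclude a difference of more than 2-fold in either direction. With DWV load in the model the median was 0.48, above 0, and 8 of 12 guards against 2 of 12 nurses had loads above 1000 RPM. Under the replicate block the median was -0.89, and edgeR called 0 of 9 and 0.347% of all genes.

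Within colonies the type differences were not alike in size, but the difference was not called. In colony 5, guards against nurses gave a median of -2.98 over the 9 genes (5 with an unadjusted p under 0.05), unresponsive bees against nurses -3.47 (7), and unresponsive bees against guards -0.37 (0). In the same order, 5.1%, 7.47% and 5.03% of all genes had such a p. In colony 6 the medians were 0.38 for guards against nurses (0 with an unadjusted p under 0.05), -3.12 for unresponsive bees against nurses (1) and -3.41 for unresponsive bees against guards (2). Of all genes, 12.6%, 1.46% and 13.1% had such a p there. edgeR called 0 of 9 in each of these 6 comparisons, where it called 0% of all genes in the 3 of colony 5. In colony 6 it called 0.274% of all genes for guards against nurses, 0% for unresponsive bees against nurses and 0.219% for unresponsive bees against guards. DESeq2 called 0 in each as well, but gave a p for 1 of the 9 genes in colony 5 and for 8 in colony 6. Of all genes, DESeq2 called 0.0274 to 0.616% in the comparisons of colony 5 and 0.00914 to 1.75% in those of colony 6. The product of type and colony was called for 0 of 9 genes, against 0.0274% of all genes. No member had an unadjusted p under 0.05 for it by edgeR, against 4.14% of all genes. DESeq2 called 0 members and 0.21% of all genes.

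Between colonies all 9 tested genes were called higher in colony 6 than in colony 5, where edgeR called 34.1% of all genes and 16.7% as higher. The model took the 18 bees of a colony as independent, while all 9 genes also differed between title numbers, which lie within colonies. The SEs and p-values for colony may therefore be too small. GB55212 had the largest fitted difference, at a log2 of 4.36 ± 1.23 (SE; adjusted p = 0.00618), with 0.617 to 2230.0 CPM and a median of 2.60 CPM in colony 6 against 0 to 299 CPM and a median of 0.588 CPM in colony 5. GB55205 differed by 3.57 ± 1.20 (adjusted p = 0.0209), with a mean of 1148 ± 2507 CPM (SD, n = 18) in colony 6 and of 138 ± 398 CPM (SD, n = 18) in colony 5. Its medians were 13.4 CPM in colony 6 and 12.5 CPM in colony 5. The medians thus lay close together, and the means differed through the bees with the highest levels. GB55204 had a median of 1.51 CPM in colony 6 and 1.65 CPM in colony 5, with a fitted difference of 3.31 ± 1.22 (adjusted p = 0.0347).

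For GB55206, GB55208 and GB55209 the medians ran the other way: 0.993 CPM in colony 6 and 2.30 CPM in colony 5 for GB55206, 2.03 CPM in colony 6 and 4.18 CPM in colony 5 for GB55208, and 1.04 CPM in colony 6 and 2.66 CPM in colony 5 for GB55209. The summed level had a median of 28.0 CPM in colony 6 and 29.2 CPM in colony 5. The other 6 fitted differences between colonies ran from 1.99 ± 0.74 (GB55207, adjusted p = 0.0364) to 3.78 ± 1.11 (GB55211, adjusted p = 0.00818). The median over the 9 genes was 3.31, against -0.0026 over all genes. The number called was 5 of 9 without the 3 bees numbered 222, and GB55204 then stood at 0.90 (adjusted p = 0.537). It was 6 to 9 when each bee was left out in turn. The shares of all genes called in these leave-out fits are not given here. DWV load moved with colony, as 3 of 18 bees in colony 6 and 13 of 18 bees in colony 5 had loads above 1000 RPM. With DWV load in the model 0 of 9 genes were called, the median difference was 0.49 and GB55205 stood at -0.28 ± 2.13, while 17.6% of all genes were still called. The share of colony and of virus load in these differences cannot be told apart.

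Bees with a high virus load mostly had low sums. Of 16 bees above 1000 RPM, 1 reached a summed 100 CPM, against 13 of 20 bees below it. In colony 5, the 13 bees with high loads (10412 to 28967 RPM) had sums of 4.76 to 475 CPM with a median of 17.1 CPM, against 103 to 2749 CPM with a median of 138 CPM in the 5 bees with low loads (9.99 to 63.9 RPM). The exception was Guard 19, with 475 CPM at 17990.1 RPM. High loads in colony 5 were found in 6 of 6 unresponsive bees, 5 of 6 guards and 2 of 6 nurses. Load and type therefore cannot be fully told apart in colony 5. In colony 6, the 3 bees with high loads, all guards, had sums of 8.16 to 17.1 CPM (median 15.5 CPM), against 8.06 to 17199.6 CPM (median 379 CPM) in the 15 bees with low loads. The 3 were Guard 213, Guard 230 and Guard 237, and the low-load bees of these numbers had low sums too, from 8.06 to 33.3 CPM. In colony 6 the split by load therefore cannot be told apart from the title number.

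GB55212 showed the same split in colony 5. It ran from 0 to 9.90 CPM (median 0.262 CPM) in the 13 bees with high loads, against 9.37 to 299 CPM (median 15.4 CPM) in the 5 bees with low loads, so the ranges overlapped only at their edge. Fitted over all 36 bees with type and colony in the model, the slope on log10 DWV load was below 0 for 9 of 9 genes, with a median of -1.41 log2 units per 10-fold load, against -0.0002 over all genes. It was -1.80 ± 0.54 for GB55211 (adjusted p = 0.697) and -1.79 ± 0.59 for GB55212 (adjusted p = 0.844). Of the 9 genes, 7 had an unadjusted p under 0.05, against 4.38% of all genes, and edgeR called 0 of 9 and 0% of all genes. DESeq2 called 3 (GB55211, GB55212 and GB55213) and 0.112% of all genes, and edgeR without type in the model called 2 (GB55211 and GB55213) and 0.512% of all genes. The count of called genes therefore depended on the tool and the model.

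**Figure D3:**
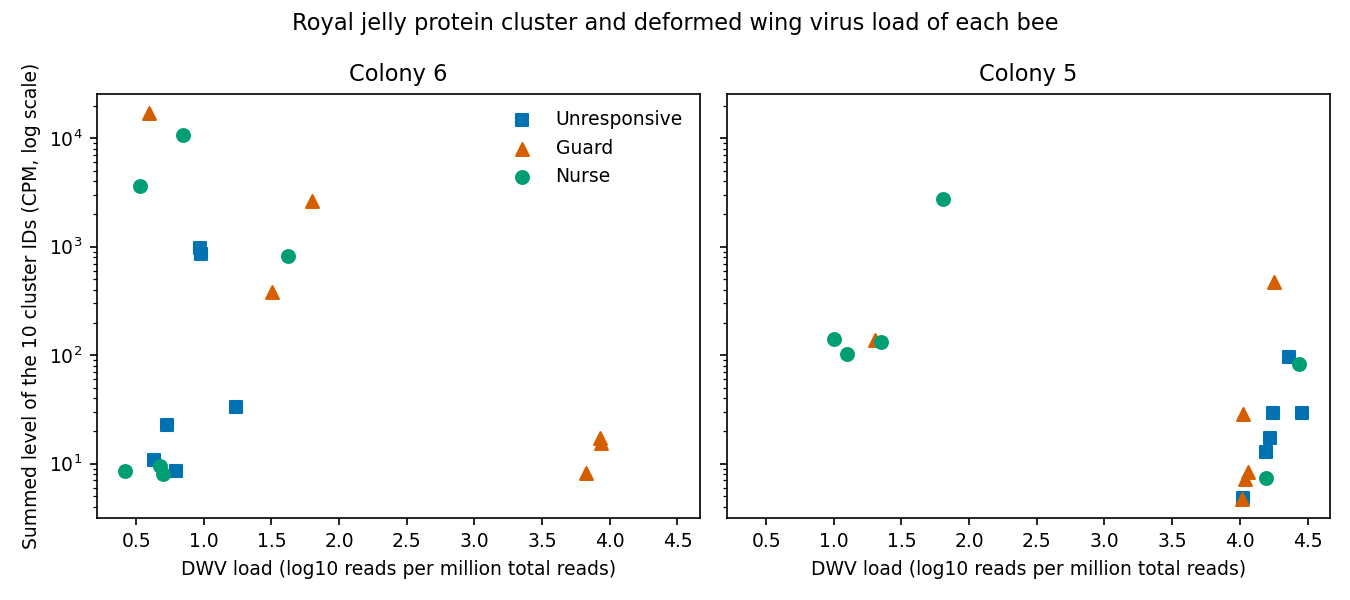
Summed level of the 10 cluster IDs (CPM, log axis) against DWV load (log10 of RPM), a point per bee marked by type, with colony 6 left of colony 5. Of the 16 bees above 1000 RPM, 15 lie below 100 CPM, while bees with low loads run from 8.06 to 17199.6 CPM.

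The tested genes varied together across bees. On the scale of log2 CPM with a prior count of 2, the 36 pairs among the 9 genes had Pearson correlations from 0.626 to 0.986 with a median of 0.883, while the median over all pairs of tested genes was -0.001. Taking each bee's deviation from the mean of its type and colony gave 0.616 to 0.988 with a median of 0.903. With GB55212, the correlation over 36 bees was 0.970 for GB55211 (Spearman's rho 0.892), 0.946 for GB55213 (rho 0.907) and 0.922 for GB55205 (rho 0.825). It was 0.886 for GB55204, 0.920 for GB55206, 0.880 for GB55208 and 0.870 for GB55209. For these 7 genes the permutation p was 1e-05 for Pearson's r, the smallest that 100000 permutations can give, and 1.14e-05 after adjustment over 8 relations. Without the 2 bees farthest from the median of GB55212 the 7 correlations were 0.826 to 0.957.

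GB55207 followed the others least. Its correlation with GB55212 was 0.635 (permutation p = 5e-05, rho 0.450 with p = 0.00616), and 0.516 without the 2 farthest bees. Within colony 6 it was 0.799, where the other 7 had 0.953 to 0.993. Within colony 5 it was 0.153 (permutation p = 0.543), where the other 7 had 0.689 to 0.915. Without the 2 farthest bees of colony 5, GB55207 had -0.202 and the other 7 had 0.482 to 0.866. For GB55209 within colony 5 the rank correlation was weaker, at a rho of 0.463 (permutation p = 0.053). Members of such a family can share near-identical stretches, and how the authors' counting treated reads that match several copies is not given in the sources used here. Reads without a unique position had a summary row of their own, apart from the genes, and made up 2.65 to 3.78% of the counted reads. Whether other reads were placed on the wrong copy was not tested.

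The highest correlations were between genes with nearby ID numbers. GB55204, GB55205 and GB55206 correlated with each other at 0.953 to 0.968, GB55208 with GB55209 at 0.986, and GB55211, GB55212 and GB55213 with each other at 0.946 to 0.970. GB55207 correlated best with its neighbours in number, at 0.849 with GB55208 and 0.859 with GB55209. Some correlations across these sets came close: GB55206 had 0.935 with GB55208 and 0.938 with GB55209, and GB55205 had 0.933 with GB55211. GB55207 had 0.738 with GB55206, its other neighbour in number. The 3 sets (GB55204 to GB55206, GB55208 and GB55209, GB55211 to GB55213) are a description of the range and were not tested as groups.

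**Figure D4:**
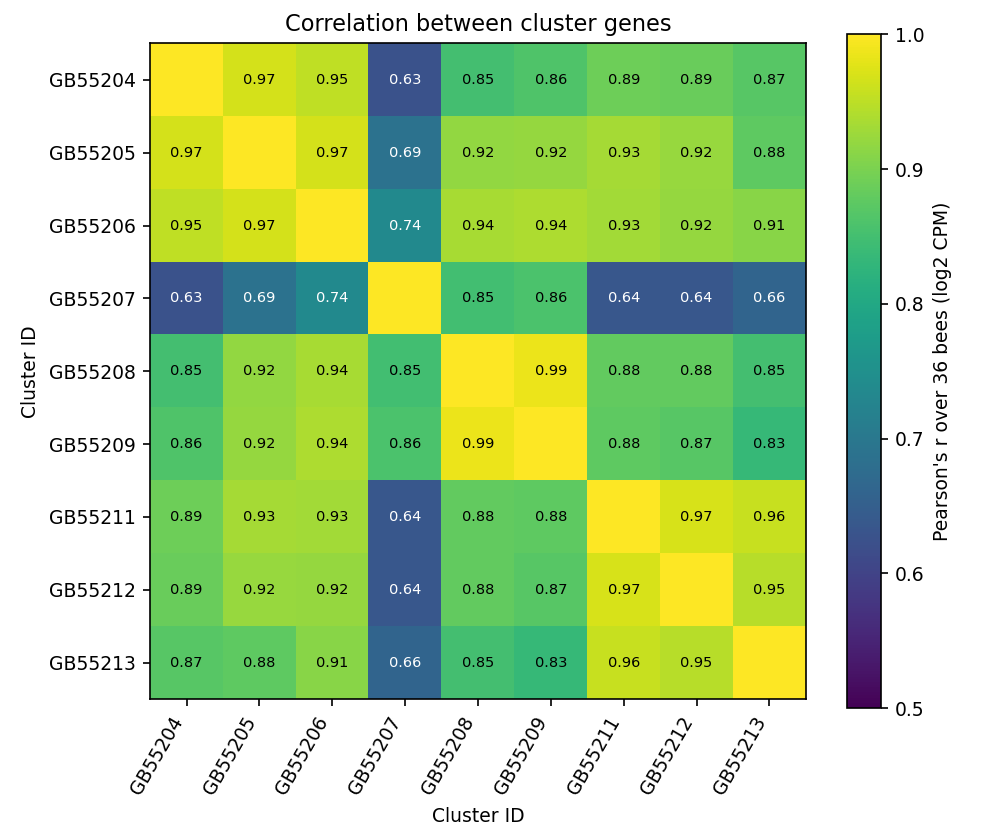
Pearson correlation of log2 CPM over the 36 bees for each pair of the 9 tested cluster genes, in order of ID. The pairs run from 0.626 to 0.986, with the highest values beside the diagonal and the lowest in the row of GB55207.

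A few bees departed from the common ratio of these sets. In Guard 222, GB55212 made up 19.2% of the reads in GB55205 and GB55212 together, with 44311 reads in GB55212 and 187082 in GB55205. The share was 19.5% in Nurse 222, 22.0% in Guard 205 and 14.9% in Nurse 19. In Guard 19 it was 0.0758% (exact 95% binomial interval 0.0207 to 0.194%), with 4 reads in GB55212 beside 5270 in GB55205. Guard 19 was thus high in the first set, with 111 CPM of GB55204, 322 CPM of GB55205 and 22.6 CPM of GB55206, and low in the last, with 0.183 CPM of GB55211, 0.244 CPM of GB55212 and 3.61 CPM of GB55213. Nurse 19, with the same number, had 53.3 CPM of GB55211 and 299 CPM of GB55212.

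In other bees the middle set was high relative to the last. Guard 210 had 1567 reads in GB55208 and 173 in GB55212, so that GB55208 made up 90.1% of both together, against 20.8% in Nurse 222 and 22.9% in Guard 222. Guard 210 also held the highest level of GB55207, at 70.2 CPM. At far lower depth, GB55208 made up 97.7% in Guard 40 (127 against 3 reads), 96.3% in Unresponsive 36 (105 against 4 reads) and 93.6% in Unresponsive 32 (73 against 5 reads). These 3 bees belong to colony 5 and had high virus loads. GB55207 exceeded GB55205 in reads in 4 bees, with 186 beside 33 in Unresponsive 36, 100 beside 21 in Unresponsive 32, 142 beside 62 in Guard 213 and 47 beside 31 in Guard 32. In Guard 40 it had 65 beside 179, and in Guard 222 it had 1021 beside 187082.

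The ratio within the middle set hardly moved in the bees with the most reads. In the 9 bees with at least 1000 reads in GB55208 and GB55209 together, GB55209 made up 35.1 to 40.0% of them, with a median of 38.3%, and Guard 210 had 38.3%. Below that depth, intervals lay outside this range in Guard 19 (48.7%, 41.5 to 56.0%), Guard 35 (27.4%, 20.8 to 34.9%) and Guard 32 (68.2%, 45.1 to 86.1%). The intervals of the other bees with reads overlapped it. In the last set, GB55211 made up 10.3 to 15.1% of the reads in GB55211 and GB55212 in the 8 bees with at least 1000. GB55213 made up 23.0 to 37.4% of the reads in GB55213 and GB55212 in 8 bees. In the first set GB55206 made up 4.25 to 12.2% of the reads in GB55206 and GB55205 in 15 bees. The ratio of GB55204 was looser, with GB55204 at 2.22% (Guard 210) to 25.6% (Guard 19) of the reads in GB55204 and GB55205. The intervals cover counting error only.

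**Figure D5:**
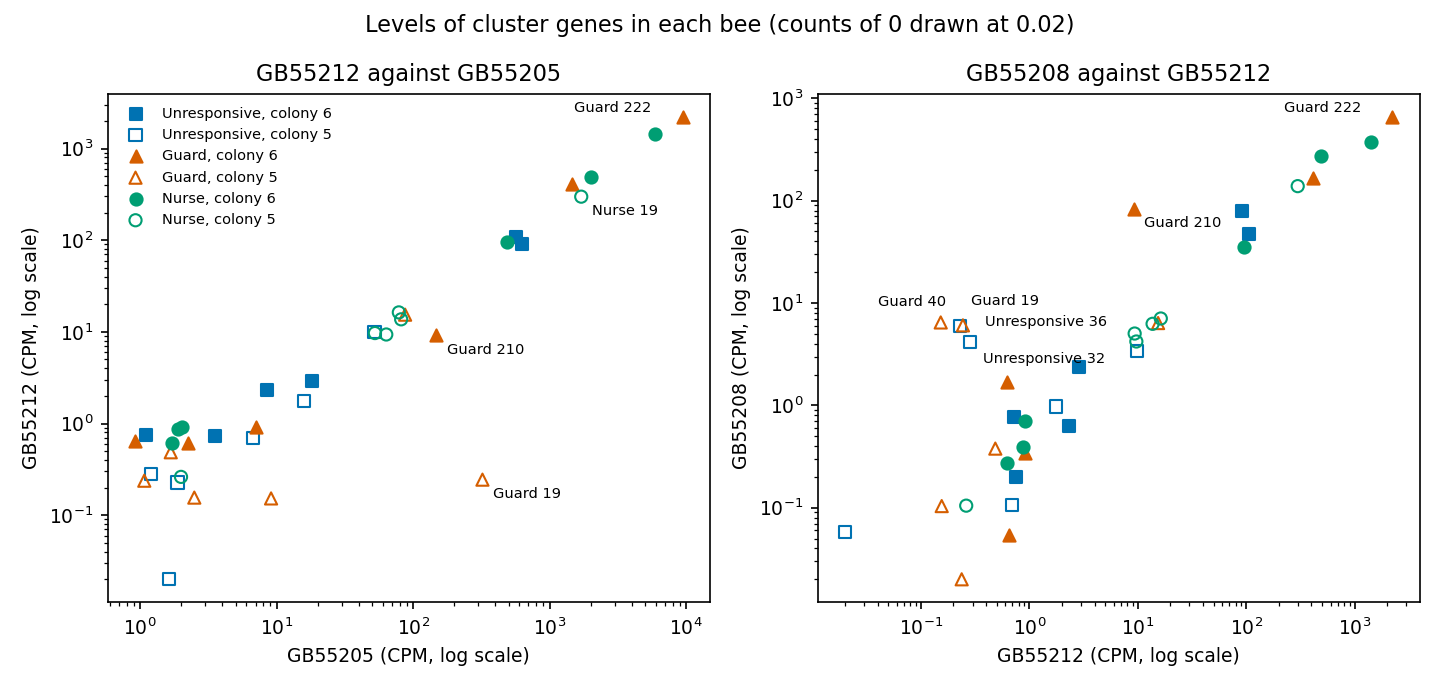
Level of GB55212 against GB55205 (left) and of GB55208 against GB55212 (right) in each bee (CPM, log axes), marked by type and filled for colony 6, with counts of 0 drawn near the edge. Guard 19 lies far below the common line on the left, and Guard 210, Guard 19, Guard 40, Unresponsive 36 and Unresponsive 32 lie above it on the right.

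Outside the range, 2 genes followed the summed level of the cluster most closely over the 36 bees. GB45796 had a correlation of 0.969 (0.981 within colony 6 and 0.935 within colony 5), more than 7 of the 9 tested members had with the sum that includes them. It ran from 0 to 1209 CPM with a median of 0.970 CPM, and had 1209 CPM in Guard 222 and 753 CPM in Nurse 222. It stood at 30.4 CPM in Guard 19 and 1.71 CPM in Guard 210. GB50115 had a correlation of 0.903 (0.956 within colony 6 and 0.782 within colony 5) and ran from 0 to 137 CPM, with its highest value in Nurse 210 and 31.9 CPM in Guard 210. Neither has a name here, and the likeness says nothing of shared function.

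Few genes were as alike. Of the genes outside the range, 10 had a correlation of at least 0.7, 88 of at least 0.5 and 91 of -0.5 or below, with a median of 0.001 over all 10948 genes. The lowest correlations were -0.665 for GB41248 (0.782 to 2.54 CPM) and -0.642 for GB53449 (4.69 to 9.58 CPM). Of the 19 counted IDs numbered just before and after the range, 18 had reads and correlated with GB55212 at -0.154 to 0.403. Only 9 of the 19 passed the low-count filter, and IDs below it had so few reads that they could hardly show a shared pattern. Of those that passed, GB55214, GB55219, GB55220, GB55222 and GB55223 had medians of 11.1 to 77.7 CPM. They correlated with GB55212 at -0.152 to 0.345. GB55196, GB55198, GB55201 and GB55217 also passed, with medians of 0.295 to 1.04 CPM and correlations of 0.229 to 0.363. GB55203, next to GB55204 in number, never exceeded 4.55 CPM. Whether these neighbours in number are neighbours on the chromosome was not checked, since no annotation of the files' build was at hand.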

How the data were processed

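RNA was sequenced from the brain tissue of 36 single bees. Per the labels' protocols, libraries came from a stranded poly(A) mRNA kit. The tools named are HTSeq, TopHat2 2.0.10, Bowtie2 2.1.0, SAMtools 0.1.19 and CASAVA 1.8.2, per the submitters' processing notes. Not given in the sources used here are their order and settings, the strand option and the build of the gene IDs. Each deposited file holds raw read counts per gene, not normalized by the authors, with 15314 IDs and 5 summary rows. Of the summary rows, reads in no feature took 27.2 to 30.0% and ambiguous reads 0.190 to 0.231% of the counted reads. Summary rows stayed out of library totals and tests.

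CPM used the plain gene total. Tests used edgeR 4.0.16 in R 4.3.3 (quasi-likelihood, robust, TMM, filterByExpr by type) over 10948 genes, fitted to all 36 bees with type and colony as terms. Adjusted p-values are Benjamini-Hochberg over all genes, threshold 0.05. Standard errors are the log2 difference over the square root of F. DESeq2 1.42.0 was the alternative tool. The scripts were tested on simulated data. DWV load is DWV reads per 1000000 total reads, from the labels. Correlations used SciPy 1.17.1 and 100000 two-sided permutations. Binomial intervals are Clopper-Pearson at 95% and cover counting error only. The members and lists were chosen with earlier results of these data known. All 10 IDs are accounted for; outside the range, the 2 genes with the highest and the 2 with the lowest correlation with log2 of the summed CPM + 0.5 are named. Lists of gland, fat body, neuron, glia, yellow family and hormone genes, fixed by symbol, could not be matched to IDs and were not analysed here.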

Additional observations from a re-analysis of the deposited data

Results flagged for a closer look

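In each tested gene, the 6 bees of every type and colony were searched for a highest or lowest bee far from the rest. Among 54 groups, 5 held one, and chance gives about 1 in 20. The groups were not independent, since the tested genes varied together in the same bees, so the 5 cannot be weighed against that rate. All 5 came from Guard 35 and Nurse 19. Guard 35 was the highest guard of colony 5 by a wide gap in GB55211 (2.19 CPM), GB55212 (15.4 CPM) and GB55213 (10.5 CPM). It was the one guard of colony 5 with a low DWV load, at 20.1 RPM, and the part of the load in these levels was not tested. Nurse 19 was the highest nurse of colony 5 by a wide gap in GB55207 (13.3 CPM) and GB55213 (178 CPM). Its summed level was 2749 CPM, the highest in colony 5.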

How the results depend on the processing

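Counts of called members kept within 1.5 times the main count under most settings. Planned settings that moved a count were DESeq2 (1 of 9 for unresponsive bees against nurses, and 3 of 9 for the DWV slope, against 0 each), the slope without behavioural type (2), the colony comparison with DWV load as a covariate (0 against 9), and the title number without the libraries numbered 213 (2 against 9). Settings chosen after seeing the data left out each bee and each number in turn. The number called ranged from 5 to 9 for colony (5 without number 222) and from 5 to 9 for title number (5 without number 230 and 5 without number 237), and stayed at 0 for each pair of types by edgeR. Of the single-gene values outside this leaving-out, 710 kept their direction and side of the threshold, 17 lost and 6 gained a call, and 16 changed sign. Leaving out bees or numbers changed the sign of 12 more.

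Sign changes, none in a called difference except that of GB55205 between colonies (-0.28 with DWV load), were these log2 differences. For guards against nurses, DWV load gave 0.56 for GB55205, 0.47 for GB55206, 0.48 for GB55208, 0.52 for GB55209 and 0.06 for GB55211. Leaving out bees gave -0.39 (without Guard 19), -1.77 (without Guard 222) and -0.28 (without number 222) for GB55204, and -0.16 for GB55207 (without Guard 210). Without Nurse 19, values were 0.34 for GB55205, 0.22 for GB55206, 0.12 for GB55208 and 0.10 for GB55209, and without number 19, 0.10 for GB55208 and 0.04 for GB55209. For unresponsive bees against nurses, GB55207 had 0.03 with DWV load, 0.14 without Nurse 19 and 0.22 without number 19. The cause was not tested.

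Of 36 pairs of bees with one number, 21 deviated together over all genes at a correlation above 0.1, the median was 0.126, and 10 of 36 bees correlated best with one of their own number. The number was to be taken as pairing only if every pair exceeded 0.1, and so was not. That rule does not show that bees of one number are independent. No correlations between bees of different numbers are given for comparison. The main type tests therefore took bees of one number as independent, although 9 of 9 tested members differed between numbers. With number as a replicate block, 0 members were called for each pair of types, for the interaction and for the slope, while genes called overall numbered 38 against 10 for guards against nurses and 9 against 2 for unresponsive bees against guards. Medians over the members moved to -2.17 from -3.51 for unresponsive bees against nurses (7 against 8 with an unadjusted p under 0.05), to -1.28 from -2.72 for unresponsive bees against guards (1 against 5) and to -0.74 from -1.41 for the slope (3 against 7). In the same order, 6.17%, 17.9% and 5.41% of all genes had such a p with the block. Under the block, guards against nurses gave -0.44 for GB55204 over both colonies, 0.05 for GB55207 within colony 5, and -0.08 for GB55211, -0.04 for GB55212 and -0.19 for GB55213 within colony 6. Within colony 5, unresponsive bees against nurses gave 0.21 for GB55207, unresponsive bees against guards gave 0.11 for GB55208 and 0.27 for GB55209. The slope of GB55207 was 0.13. Of the 8 correlations with GB55212, 7 kept an adjusted permutation p under 0.05 for Pearson's r within colony 5. Without the 2 farthest bees there, these 7 were 0.482 to 0.866.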

Other observations

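Guard 210 and Nurse 210 shared a title number and a low DWV load, but not the makeup of the cluster. GB55207 had 70.2 CPM in Guard 210 and 34.4 CPM in Nurse 210, while GB55204 had 3.36 CPM in Guard 210 and 136 CPM in Nurse 210. GB45796, outside the range, had 1.71 CPM in Guard 210 and 152 CPM in Nurse 210. GB50115 had 31.9 CPM in Guard 210 and 137 CPM in Nurse 210.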
